A study of Mus musculus with 11 samples.

Results

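The 10 genes described here are regulators and effectors of the integrated stress response: Atf4, Atf5, Ddit3 (which encodes CHOP), Atf3, Trib3, Ppp1r15a, Chac1, Sesn2, Ddit4 and Vldlr. They were taken from a list of symbols, and each was represented by a single probe set among the 22180 named genes of the array. All samples came from 1 mouse leukaemia line named 720, a T-ALL (T-cell acute lymphoblastic leukaemia). Per the labels its mouse of origin was Tcf12+/- and carried Tal1 as a transgene driven by the Lck promoter, so a single line stands for the disease. All samples had received a compound that the labels call a Runt domain inhibitor, after the DNA-binding domain of the RUNX transcription factors, for 8 h. The groups were AI-9-54 at 50 µM (4 arrays, replicates 1 to 4), AI-8-45 at 100 µM (4 arrays, replicates 1 to 4) and AI-7-54 at 100 µM (3 arrays, replicates 1, 3 and 4). Every sample therefore shares the line, its Tcf12 and Tal1 background and exposure to an inhibitor. Cells given vehicle alone were not analysed here, and every comparison sets 1 compound against another. The compounds are known by code names only. AI-9-54 was given at a lower dose than the others, so in its comparisons compound and dose cannot be told apart. The labels do not say whether replicates were separate cultures, so the p-values measure array-to-array spread, which may be technical only.

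In the integrated stress response, kinases that sense amino acid shortage, unfolded protein, double-stranded RNA or haem shortage phosphorylate the translation factor eIF2. General translation then falls, while the mRNA of ATF4 is translated more, so the protein can change with little change in Atf4 mRNA. ATF4 pairs with other basic leucine zipper (bZIP) proteins such as C/EBP factors and CHOP and binds composite C/EBP-ATF elements near genes of amino acid supply, redox balance and feedback control. Arrays measure mRNA only, and no protein was measured here.

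Of 8 measured T-cell markers, the genes of the CD3 chains of the T-cell receptor complex, Cd3d, Cd3e and Cd3g, were bright (group means on the log2 scale of 11.75, 12.99 and 12.93 under AI-9-54 and 11.73, 13.00 and 13.02 under AI-7-54). The coreceptor genes were not: Cd4 was at 6.16 and 6.26 and Cd8a at 5.71 and 5.61 for the same compounds, below the array medians of 6.61 to 6.68. Array means of the whole list lay between 9.11 and 9.57 and its median gene at 8.49. B-lineage markers had array means between 5.66 and 5.77, myeloid markers had array means between 6.28 and 6.43, and the erythroid marker lay between 6.03 and 6.34. The 4 stromal and endothelial markers had array means between 8.04 and 8.27, with a median gene at 7.21. Among them Pecam1 was at 11.23 under AI-9-54 and 11.33 under AI-7-54, while Cdh5 (6.89 and 6.89), Col3a1 (6.96 and 6.88) and Col1a1 (7.48 and 7.57) lay far below it. Of the T-cell markers, 3 were lower under AI-9-54 than under AI-7-54 (Cd2, Cd5 and Ptcra) and Cd5 was lower under AI-8-45 than under AI-7-54. With the replicate set as a term in the model 3 were lower in each of these comparisons, and 2 were lower under AI-9-54 than under AI-8-45. None of the measured markers of other lineages passed the test in any comparison, and the part of these markers in the results was not tested. In such bulk RNA of 1 line, fewer cells that express a gene and less of its RNA per cell cannot be told apart. Replicates 1 and 2 differed from replicates 3 and 4 in every compound group, and earlier work on these data found this split because it separates the arrays. The labels do not say what the replicate numbers stand for. Compound differences are therefore also given with the set as a term in the model and, further on, within each set.

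The promoters below are shown because 4 of the 10 genes hold, within 250 bases before and 50 bases after an annotated RefSeq start, the core of the C/EBP-ATF composite element, and 1 holds a cyclic AMP response element (CRE), the classical site of the ATF and CREB family. The searched letters were TGATGNAA for the composite core and TGACGTCA for the CRE, on both strands. The composite core was found in 1304 of 32851 mouse promoter windows (3.97%) and in 4 of the 12 windows of these genes. The CRE was found in 588 windows (1.79%) and in 1 of the 12. The longer endoplasmic reticulum stress element was found in 39 windows (0.119%) and in none of the 12. Sequences are from RefSeq, build GRCm38.p6, printed 5′ to 3′ along the gene, with the match in capitals. Composite cores lie on the opposite strand, so they read TTGCATCA or TTACATCA as printed, and no match overlapped another motif.
Trib3 (chr2:152344011-152344310, minus strand): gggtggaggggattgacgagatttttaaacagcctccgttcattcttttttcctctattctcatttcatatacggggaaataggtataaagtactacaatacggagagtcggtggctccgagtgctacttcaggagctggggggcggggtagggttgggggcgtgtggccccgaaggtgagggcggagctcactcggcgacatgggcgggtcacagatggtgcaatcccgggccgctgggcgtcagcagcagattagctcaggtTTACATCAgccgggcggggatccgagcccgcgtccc
Chac1 (chr2:119350992-119351291, plus strand): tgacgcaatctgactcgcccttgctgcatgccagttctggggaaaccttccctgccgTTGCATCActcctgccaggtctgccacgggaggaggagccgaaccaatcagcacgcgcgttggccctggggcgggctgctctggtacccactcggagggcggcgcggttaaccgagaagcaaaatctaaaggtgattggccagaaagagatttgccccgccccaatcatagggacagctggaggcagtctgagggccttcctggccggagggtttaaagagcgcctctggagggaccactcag
Vldlr (chr19:27216770-27217069, plus strand): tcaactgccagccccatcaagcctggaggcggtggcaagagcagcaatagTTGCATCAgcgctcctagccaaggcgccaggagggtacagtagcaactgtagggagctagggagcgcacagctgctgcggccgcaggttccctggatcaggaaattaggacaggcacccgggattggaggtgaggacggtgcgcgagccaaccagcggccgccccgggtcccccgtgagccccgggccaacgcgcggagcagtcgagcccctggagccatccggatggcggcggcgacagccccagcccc
Atf3 (chr1:191183284-191183583, minus strand): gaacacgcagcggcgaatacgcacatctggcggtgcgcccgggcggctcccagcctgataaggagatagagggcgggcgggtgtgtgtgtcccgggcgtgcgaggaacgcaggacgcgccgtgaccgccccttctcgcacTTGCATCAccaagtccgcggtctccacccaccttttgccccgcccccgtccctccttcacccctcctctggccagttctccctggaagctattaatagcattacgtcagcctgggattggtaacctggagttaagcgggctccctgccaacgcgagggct
Ppp1r15a (chr7:45526219-45526518, minus strand): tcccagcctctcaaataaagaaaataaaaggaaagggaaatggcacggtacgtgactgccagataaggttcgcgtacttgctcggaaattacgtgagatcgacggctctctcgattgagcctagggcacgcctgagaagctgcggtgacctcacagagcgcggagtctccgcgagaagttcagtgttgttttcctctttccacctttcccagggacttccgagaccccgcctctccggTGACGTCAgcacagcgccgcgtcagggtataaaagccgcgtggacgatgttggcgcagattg

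Counted from the annotated start, where the first transcribed base is 1, the core spans -193 to -186 in Chac1, -200 to -193 in the second Vldlr window, -110 to -103 in Atf3 and 15 to 22 in Trib3. The CRE of Ppp1r15a spans -12 to -5. The windows of Atf4, Atf5, Ddit3, Ddit4 and Sesn2 and the other Vldlr window hold none of the 3 motifs. These matches describe the letters in the windows only. Of the genes with the composite core, Vldlr and Trib3 passed as higher under AI-9-54 than under AI-7-54 in the model without the replicate set. Chac1 and Atf3 did not pass in that model (limma adjusted p 0.161 and 0.741). Atf5, Ddit3 and Sesn2, whose windows hold none of the motifs, also passed as higher, as did Ppp1r15a, which holds the CRE only. With the replicate set as a term 9 of the 10 genes passed as higher, against 8.99% of all genes. Chac1 was among the 9 (limma adjusted p 6.36e-06), and Atf3 was not (adjusted p 0.395).

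Ddit3 and Atf5 separated all 3 compounds, with the highest level under AI-9-54, an intermediate level under AI-8-45 and the lowest under AI-7-54. Ddit3 encodes CHOP, a bZIP factor linked to cell death under prolonged stress. Its log2 signal (probe set 17237978) was 10.69, 10.74, 10.12 and 10.03 on AI-9-54 replicates 1 to 4. It was 9.66, 9.61, 9.53 and 9.39 on AI-8-45 replicates 1 to 4, and 9.07, 8.90 and 8.90 on AI-7-54 replicates 1, 3 and 4. No array of a group overlapped another group, and within AI-9-54 replicates 1 and 2 lay above replicates 3 and 4. The mean was 10.39 ± 0.37 under AI-9-54 (SD, n = 4) and 8.96 ± 0.10 under AI-7-54 (SD, n = 3), a 2.71-fold difference (limma adjusted p 6.89e-05). Against AI-8-45 (9.55 ± 0.12, SD, n = 4) the AI-9-54 level was 1.80-fold higher (adjusted p 0.0157), and the AI-8-45 level was 1.51-fold higher than that of AI-7-54 (adjusted p 0.0445). By the size of its log2 difference Ddit3 ranked 16 of 22180 genes between AI-9-54 and AI-7-54, and 16 again between AI-9-54 and AI-8-45.

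Atf5 encodes a bZIP factor that, like ATF4, is controlled in translation and has been tied to mitochondrial stress. The Atf5 log2 signal (probe set 17490391) was 9.33, 9.38, 9.18 and 9.01 on AI-9-54 replicates 1 to 4. Under AI-8-45 it was 8.48, 8.41, 8.39 and 8.48 (replicates 1 to 4), and under AI-7-54 8.17, 8.19 and 8.01 (replicates 1, 3 and 4). The groups did not overlap, and the AI-8-45 arrays were the closest to each other (SD 0.05). AI-9-54 was 2.15-fold above AI-7-54 (log2 difference 1.10 ± 0.08, SE, adjusted p 4.34e-06) and 1.72-fold above AI-8-45 (0.79 ± 0.07, adjusted p 0.000322). AI-8-45 was 1.25-fold above AI-7-54 at the same dose (0.32 ± 0.08, adjusted p 0.037).

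Atf4 itself, the central factor of the pathway, had overlapping groups. Its probe set 17313100 gave a log2 signal of 9.68, 9.56, 9.25 and 9.25 on AI-9-54 replicates 1 to 4, 9.35, 9.38, 8.95 and 8.93 on AI-8-45 replicates 1 to 4, and 9.40, 9.05 and 8.92 on AI-7-54 replicates 1, 3 and 4. Within each replicate set, however, every AI-9-54 array lay above every array of the other compounds. The log2 difference between AI-9-54 and AI-7-54 was 0.31 (95% interval -0.02 to 0.64, limma adjusted p 0.237), and that between AI-9-54 and AI-8-45 was 0.28 (-0.02 to 0.58, adjusted p 0.474). With the replicate set as a term in the model these were 0.24 ± 0.05 (SE, adjusted p 0.00284) and 0.28 ± 0.04 (adjusted p 0.00336). AI-8-45 and AI-7-54 were at nearly the same mean (9.15 ± 0.24 and 9.12 ± 0.25, SD), with a difference of 0.03 (-0.30 to 0.35, adjusted p 0.971). Atf3, a stress-induced bZIP factor of the same family, stayed near the array medians in all groups: 6.51 to 6.69 under AI-9-54, 6.52 to 6.80 under AI-8-45 and 6.58 to 6.76 under AI-7-54. Its differences were -0.05 (-0.21 to 0.10), -0.01 (-0.16 to 0.14) and -0.05 (-0.19 to 0.09) for AI-9-54 against AI-7-54, AI-8-45 against AI-7-54 and AI-9-54 against AI-8-45 (adjusted p 0.741, 0.982 and 0.868). The deposited values carry no background level, so whether Atf3 lies above background cannot be told.

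**Figure D1:**
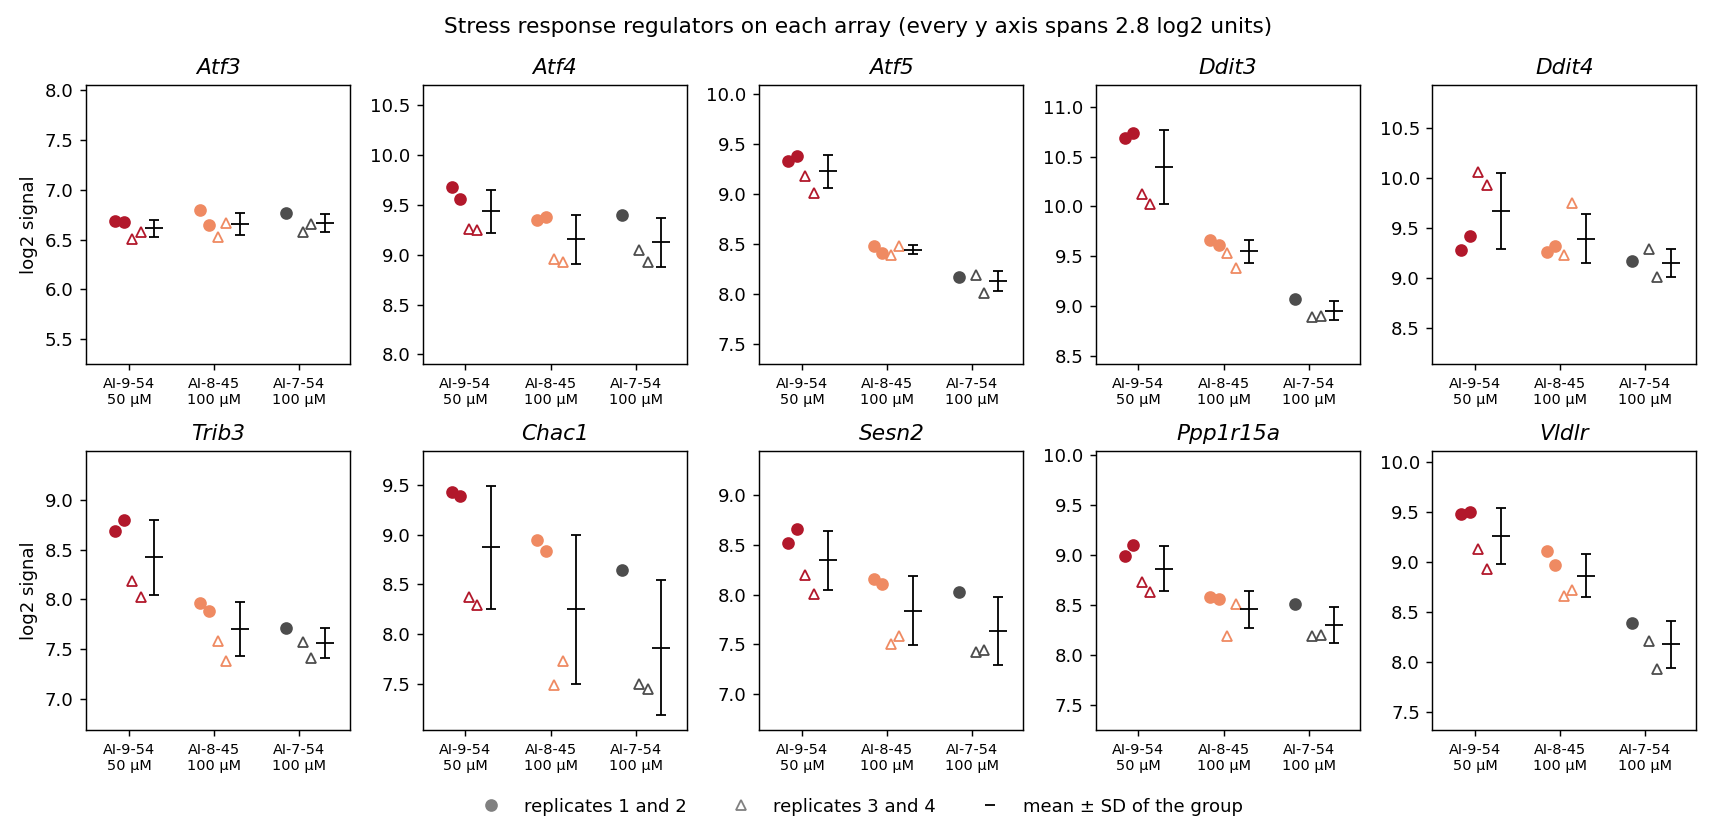
Log2 signal of each stress response gene on every array, by compound and dose (AI-9-54 and AI-8-45, n = 4, AI-7-54, n = 3). Filled circles are replicates 1 and 2, open triangles replicates 3 and 4, and the bar is the group mean ± SD. Ddit3 and Atf5 fall into 3 separate levels, and the circles of Chac1 (8.65 to 9.42) lie above its triangles (7.45 to 8.38) in every group.

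The next genes act in feedback on the pathway. Trib3 encodes a pseudokinase that binds ATF4 and limits it. The Trib3 log2 signal (probe set 17392925) was 8.68, 8.80, 8.19 and 8.02 on AI-9-54 replicates 1 to 4, 7.96, 7.89, 7.59 and 7.38 on AI-8-45 replicates 1 to 4, and 7.71, 7.57 and 7.41 on AI-7-54 replicates 1, 3 and 4. All AI-9-54 arrays lay above all others, while AI-8-45 and AI-7-54 overlapped. Trib3 was 1.81-fold higher under AI-9-54 than under AI-7-54 (adjusted p 0.00766). Against AI-8-45 the log2 difference was 0.72 ± 0.17 (SE), with an adjusted p of 0.0699, which became 0.0388 without AI-9-54 replicate 4, 0.0432 over genes brighter than the median gene, and 0.00041 with the replicate set in the model. Between AI-8-45 and AI-7-54 it was 0.14 (95% interval -0.26 to 0.54, adjusted p 0.822).

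Ppp1r15a encodes GADD34, the stress-induced partner of protein phosphatase 1 that removes phosphate from eIF2. Probe set 17490878 read 8.99, 9.10, 8.73 and 8.63 on AI-9-54 replicates 1 to 4, 8.58, 8.56, 8.18 and 8.51 on AI-8-45 replicates 1 to 4, and 8.51, 8.19 and 8.20 on AI-7-54 replicates 1, 3 and 4. The 4 AI-9-54 arrays lay above all others. The gene was 1.48-fold higher under AI-9-54 than under AI-7-54 (adjusted p 0.0103), and leaving out AI-7-54 replicate 3 or replicate 4 ended the call (adjusted p 0.0551 and 0.0537). Against AI-8-45 the log2 difference was 0.41 ± 0.12 (SE, adjusted p 0.15, or 0.00484 with the replicate set as a term). AI-8-45 and AI-7-54 differed by 0.16 (-0.12 to 0.44, adjusted p 0.645).

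Of the effectors, Chac1 encodes an enzyme that breaks down glutathione. The log2 signal of Chac1 (probe set 17374807) was 9.42, 9.39, 8.38 and 8.30 on AI-9-54 replicates 1 to 4, 8.95, 8.83, 7.49 and 7.73 on AI-8-45 replicates 1 to 4, and 8.65, 7.50 and 7.45 on AI-7-54 replicates 1, 3 and 4. The step between replicate sets was larger than the step between compounds, and within each set AI-9-54 was above both other compounds. With all arrays pooled the log2 difference between AI-9-54 and AI-7-54 was 1.00 (95% interval 0.08 to 1.93, adjusted p 0.161). With the set in the model it was 0.81 ± 0.07 (SE, adjusted p 6.36e-06). The difference between AI-9-54 and AI-8-45 was 0.62 (-0.23 to 1.48, adjusted p 0.619), or 0.62 ± 0.06 with the set as a term (adjusted p 0.000185). That between AI-8-45 and AI-7-54 was 0.38 (-0.54 to 1.31, adjusted p 0.77), or 0.19 ± 0.07 with the set as a term (adjusted p 0.112).

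Sesn2 and Ddit4 both encode inhibitors of the growth kinase mTORC1: Sestrin 2, a leucine sensor, and REDD1, which acts through the TSC complex. Sesn2 (probe set 17430861) had a log2 signal of 8.52, 8.65, 8.20 and 8.00 on AI-9-54 replicates 1 to 4, 8.16, 8.11, 7.50 and 7.58 on AI-8-45 replicates 1 to 4, and 8.02, 7.43 and 7.44 on AI-7-54 replicates 1, 3 and 4. It was 1.64-fold higher under AI-9-54 than under AI-7-54 (adjusted p 0.0363), although AI-9-54 replicate 4 lay below AI-7-54 replicate 1. That call ended when AI-7-54 replicate 3 or 4 or AI-9-54 replicate 1 or 2 was left out (adjusted p 0.157, 0.147, 0.0887 and 0.1), and when every probe set of the array was tested (adjusted p 0.0774). With the set in the model it was 0.62 ± 0.06 (SE, adjusted p 1.62e-05). Against AI-8-45 the log2 difference of AI-9-54 was 0.51 (0.09 to 0.92, adjusted p 0.298), or 0.51 ± 0.05 with the set as a term (adjusted p 0.000275). AI-8-45 and AI-7-54 differed by 0.21 (-0.24 to 0.65, adjusted p 0.734).

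Ddit4 differed from the other genes in its order of replicates under AI-9-54, with replicates 3 and 4 above 1 and 2. Its log2 signal (probe set 17241032) was 9.28, 9.42, 10.06 and 9.93 on AI-9-54 replicates 1 to 4, 9.26, 9.31, 9.23 and 9.75 on AI-8-45 replicates 1 to 4, and 9.17, 9.28 and 9.00 on AI-7-54 replicates 1, 3 and 4. The high arrays were AI-9-54 replicates 3 and 4 and AI-8-45 replicate 4, and the other 8 arrays lay between 9.00 and 9.42. The log2 difference between AI-9-54 and AI-7-54 was 0.52 (95% interval 0.13 to 0.91, adjusted p 0.0811). It passed the test without AI-9-54 replicate 1 (0.65, adjusted p 0.0267), over genes brighter than the median gene (adjusted p 0.0496), with array weights (adjusted p 0.0305) and with the set as a term (0.57 ± 0.15, SE, adjusted p 0.0156). The differences between AI-9-54 and AI-8-45 (0.28, -0.08 to 0.65) and between AI-8-45 and AI-7-54 (0.24, -0.16 to 0.63) did not pass (adjusted p 0.575 and 0.618).

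Vldlr encodes the very-low-density lipoprotein receptor, a known target of the PERK and ATF4 arm. Its log2 signal (probe set 17358422) was 9.49, 9.50, 9.14 and 8.93 on AI-9-54 replicates 1 to 4, 9.11, 8.98, 8.66 and 8.72 on AI-8-45 replicates 1 to 4, and 8.39, 8.21 and 7.93 on AI-7-54 replicates 1, 3 and 4. All AI-7-54 arrays lay below all arrays of both other compounds, which overlapped each other. It was 2.12-fold higher under AI-9-54 (adjusted p 0.000551) and 1.61-fold higher under AI-8-45 (adjusted p 0.0213) than under AI-7-54. AI-9-54 exceeded AI-8-45 by 0.40 ± 0.14 (SE, adjusted p 0.273, or 0.00663 with the set as a term). Lipoprotein receptor genes can also answer to sterol supply, and the 4 measured genes of a list of sterol genes (Sqle, Hmgcs1, Insig1 and Srebf2) went in the other direction. All 4 were lower under AI-9-54 than under AI-7-54 (Sqle -1.29, Hmgcs1 -0.69, Insig1 -0.48 and Srebf2 -0.33) and under AI-8-45 than under AI-7-54 (Sqle -1.07, Hmgcs1 -0.74, Insig1 -0.68 and Srebf2 -0.36). The part of sterol supply in the Vldlr differences was not tested.

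**Figure D2:**
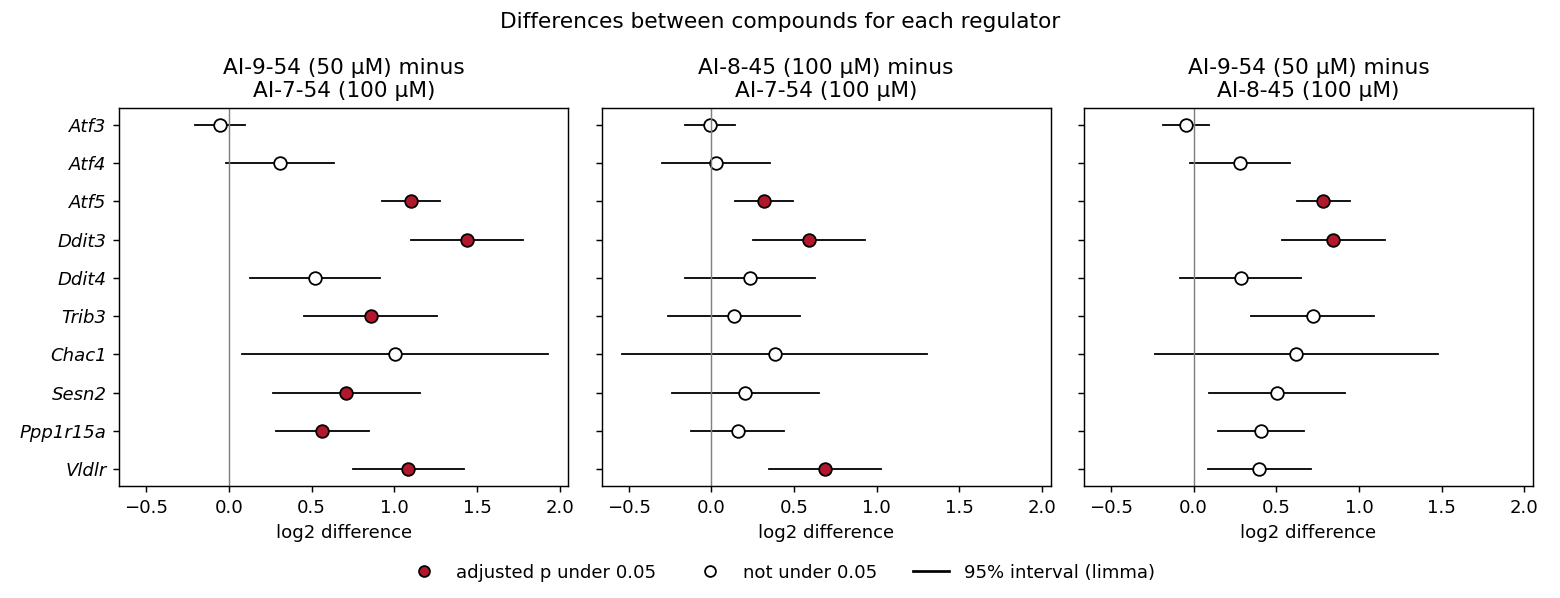
Log2 difference of each gene between compounds, with its 95% limma interval. Filled points passed the test at an adjusted p under 0.05: 6 of 10 for AI-9-54 minus AI-7-54, 3 for AI-8-45 minus AI-7-54 and 2 for AI-9-54 minus AI-8-45. Chac1, whose arrays lie between 7.45 and 9.42, has the widest interval in each panel.

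Counted over the 10 genes, 6 rose and none fell between AI-9-54 and AI-7-54, where 6.87% of all 22180 genes were called higher, 7.29% lower and 14.2% in either direction. The 6 were Atf5, Ddit3, Trib3, Sesn2, Ppp1r15a and Vldlr. At the same dose of 100 µM, AI-8-45 was above AI-7-54 for Atf5, Ddit3 and Vldlr, 3 of 10, and below it for none, against 2.13% of all genes called higher, 3.53% lower and 5.66% either way. AI-9-54 was above AI-8-45 for Atf5 and Ddit3, 2 of 10, against 0.708% of all genes called higher, 0.6% lower and 1.31% either way. Groups without overlap, all with the higher level under the compound named first, were seen for 5 of the 10 genes between AI-9-54 and AI-7-54 (11.3% of all genes, 23.2% either way). They were seen for 3 between AI-8-45 and AI-7-54 (6.79% of all genes, 15.9% either way) and for 4 between AI-9-54 and AI-8-45 (3.83% of all genes, 6.67% either way). The median log2 difference of the 10 genes was 0.78, 0.22 and 0.46 in these comparisons, in the same order, and that of all genes lay at 0.00 in each. AI-7-54 has 1 array in replicates 1 and 2 and 2 in replicates 3 and 4, while the other groups are balanced. In each compound 7 of the 10 genes were higher in replicates 1 and 2. The differences from AI-7-54 in this model therefore include part of the set difference. With the set as a term the medians were 0.70, 0.15 and 0.46. The 3 comparisons share arrays, so their counts are not independent of each other. The 10 genes were chosen with earlier results of these data known.

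At equal dose the calls depended on single arrays. Between AI-8-45 and AI-7-54 the calls of Atf5 and Ddit3 ended when any one array of either group was left out (adjusted p 0.0597 to 0.17 and 0.0506 to 0.171), as did that of Vldlr without AI-7-54 replicate 3 or 4 or AI-8-45 replicate 1 or 2 (adjusted p 0.0581 to 0.107). None of the 3 passed when every probe set was tested (adjusted p 0.0874 for Atf5, 0.106 for Ddit3 and 0.0584 for Vldlr), and all 3 passed with the set in the model (0.30 ± 0.07, SE, adjusted p 0.0189 for Atf5, 0.54 ± 0.10, adjusted p 0.00435 for Ddit3 and 0.62 ± 0.07, adjusted p 0.000283 for Vldlr). Between AI-9-54 and AI-8-45 the Ddit3 call ended without AI-8-45 replicate 4 (adjusted p 0.0515), when only these groups were fitted (adjusted p 0.0513) and with every probe set (adjusted p 0.0571). With the replicate set in the model 9 of the 10 genes were higher under AI-9-54 than under AI-7-54, against 8.99% of all genes (9.21% lower, 18.2% either way). For AI-8-45 against AI-7-54 the count was 3 (3.59% of all genes, 5.19% lower, 8.79% either way) and for AI-9-54 against AI-8-45 it was 8 (1.92% of all genes, 1.76% lower, 3.68% either way). That model removes a split that was chosen because it separates these arrays, so its p-values may be too small.

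The replicate sets were compared as a description, with no test. In all 3 compounds every array of replicates 1 and 2 lay above every array of replicates 3 and 4 for 7 of the 10 genes (Atf4, Ddit3, Trib3, Chac1, Sesn2, Ppp1r15a and Vldlr), as it did for 5% of all genes (10.6% in either direction). The AI-7-54 group has 1 array in the first set and 2 in the second. For none of the 10 did replicates 1 and 2 lie below replicates 3 and 4 in all 3 compounds, as they did for 5.64% of all genes.

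Chac1 differed most between the sets. Its mean in replicates 1 and 2 was 9.41 under AI-9-54, 8.89 under AI-8-45 and 8.65 under AI-7-54. In replicates 3 and 4 it was 8.34, 7.61 and 7.48 for the same compounds. Averaged over compounds the difference was 1.17, the fourth of all genes by size. Sesn2 followed at 0.56, Trib3 at 0.43, Atf4 at 0.40, Vldlr at 0.38, Ddit3 at 0.33 and Ppp1r15a at 0.30. Atf5 differed by 0.26 between the sets under AI-9-54 and by 0.01 under AI-8-45 and 0.07 under AI-7-54, where the sets overlapped. Ddit4 was lower in replicates 1 and 2 than in replicates 3 and 4 under AI-9-54 by a log2 difference of -0.65, with overlapping sets under AI-8-45 (-0.21) and AI-7-54 (0.02).

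**Figure D3:**
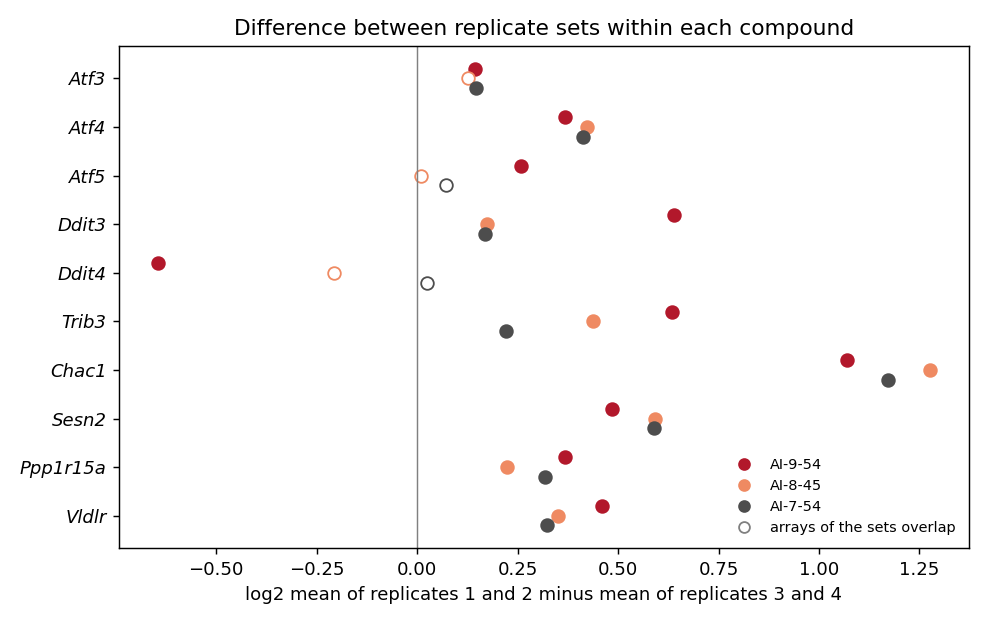
Mean log2 signal of replicates 1 and 2 minus that of replicates 3 and 4, for each gene within AI-9-54, AI-8-45 and AI-7-54. Open points mark sets whose arrays overlap. Chac1 lies between 1.07 and 1.28 in every compound, and Ddit4 under AI-9-54 lies on the other side of 0 at -0.65.

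Whether the compound difference itself depended on the set was tested with an interaction term. None of the 10 genes passed in any of the 3 comparisons with limma (lowest adjusted p 0.265), and 9, 0 and 3 of all 22180 genes did (0.0406%, 0% and 0.0135%) for AI-9-54 against AI-7-54, AI-8-45 against AI-7-54 and AI-9-54 against AI-8-45. The share of all genes at an unadjusted p under 0.05 was not counted, so nothing is drawn from the number of the 10 genes there. There were 3 of the 10 genes, 0 and 1 in the same order. Between AI-9-54 and AI-7-54 these were Ddit3 (1.65 within replicates 1 and 2 and 1.17 within replicates 3 and 4, unadjusted p 0.00104), Trib3 (1.03 and 0.61, unadjusted p 0.0169) and Ddit4 (0.18 and 0.85, unadjusted p 0.0191). Between AI-9-54 and AI-8-45 it was Ddit3 again (1.08 and 0.61, unadjusted p 0.000528). For other genes the AI-9-54 minus AI-7-54 values in the sets were 1.19 and 1.00 for Atf5, 1.10 and 0.96 for Vldlr, 0.76 and 0.86 for Chac1, 0.56 and 0.66 for Sesn2, 0.54 and 0.49 for Ppp1r15a, 0.22 and 0.26 for Atf4, and -0.08 and -0.08 for Atf3. At equal dose the AI-8-45 minus AI-7-54 values were 0.57 and 0.56 for Ddit3, 0.65 and 0.62 for Vldlr and 0.28 and 0.34 for Atf5, so these 3 genes were above 0 in both sets. For the other 7 genes that difference lay between -0.04 and 0.24 within replicates 1 and 2 and between -0.05 and 0.35 within replicates 3 and 4. AI-7-54 has 1 array in replicates 1 and 2, so these tests are imprecise, and a p that missed the threshold does not show equal differences.

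**Figure D4:**
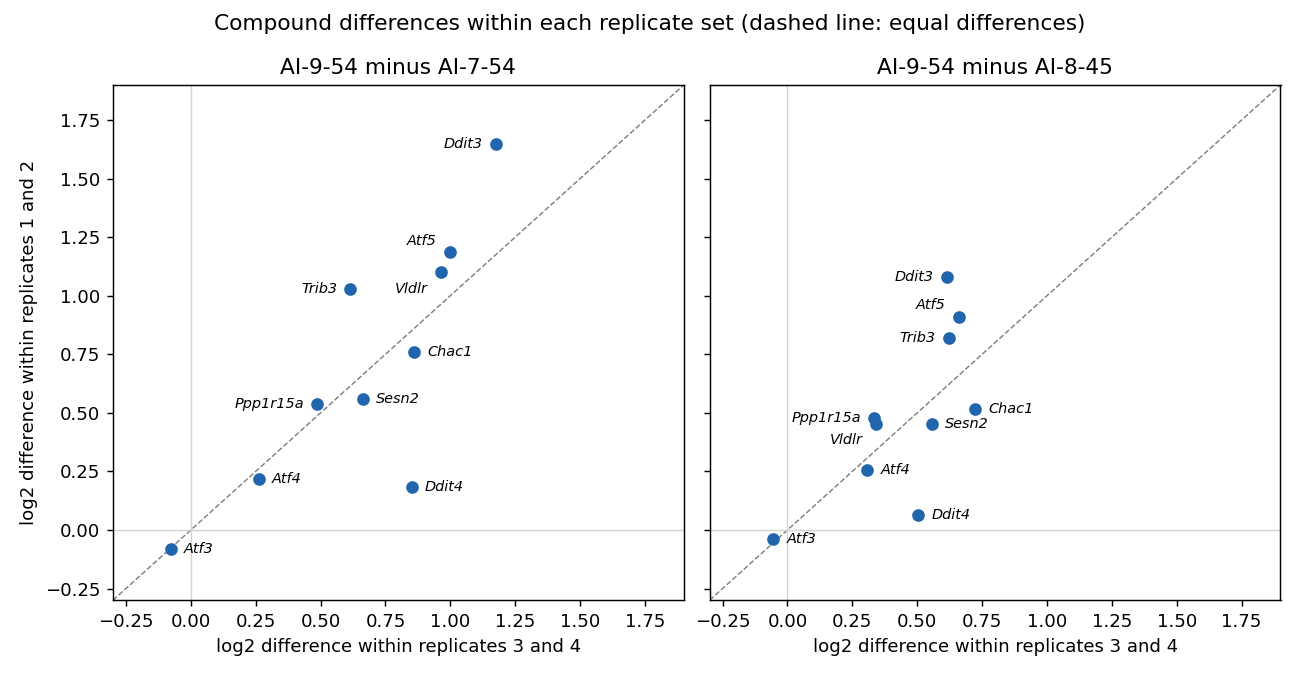
Log2 difference of each gene within replicates 1 and 2 (vertical) against that within replicates 3 and 4 (horizontal), for AI-9-54 minus AI-7-54 and AI-9-54 minus AI-8-45. On the dashed line both sets give the same difference. Ddit3 lies farthest above it, at 1.65 and 1.17 in the first panel, and Ddit4 farthest below it, at 0.18 and 0.85.

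The rest of the pathway was read from lists of genes, and each count below stands beside the share of all genes called, which is 6.87% higher and 7.29% lower for AI-9-54 against AI-7-54, 2.13% and 3.53% for AI-8-45 against AI-7-54, and 0.708% and 0.6% for AI-9-54 against AI-8-45. With the replicate set as a term these shares are 8.99% and 9.21%, 3.59% and 5.19%, and 1.92% and 1.76%. Nothing particular to a list is drawn from its count. Of 35 measured stress response targets outside the 10 genes, 4 were higher and 1 lower under AI-9-54 than under AI-7-54 (median log2 difference 0.18). The cystine and glutamate exchanger gene Slc7a11 was 10.38 ± 0.28 under AI-9-54 and 8.02 ± 0.75 under AI-7-54 (SD, adjusted p 0.00383). Its partner chain gene Slc3a2 was higher by 0.45 (adjusted p 0.0293), the bZIP partner gene Cebpg by 0.43 (adjusted p 0.0238) and the seryl-tRNA synthetase gene Sars by 0.42 (adjusted p 0.0402), while the tryptophanyl-tRNA synthetase gene Wars was lower (-0.42, adjusted p 0.000178). With the replicate set as a term, 13 passed as higher and 4 as lower, and the median was 0.10. Between AI-8-45 and AI-7-54 the targets had a median of -0.05, with none higher and Wars lower (-0.33, adjusted p 0.00274). With the set as a term 0 passed as higher and 10 as lower in that comparison, with a median of -0.09. Between AI-9-54 and AI-8-45 Slc7a11 was higher (1.95, adjusted p 0.045) and none lower, with a median of 0.23, and with the set as a term 18 passed as higher and 0 as lower.

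Among the 14 measured genes of the eIF2 kinases, eIF2 and its exchange factor, Eif2ak3 followed the same order of compounds as Ddit3 and Atf5. It encodes PERK, the kinase that senses unfolded protein in the endoplasmic reticulum. Its log2 signal averaged 11.18 ± 0.08 under AI-9-54, 10.88 ± 0.05 under AI-8-45 and 10.30 ± 0.07 under AI-7-54 (SD). The groups did not overlap, and it was higher in each comparison (AI-9-54 against AI-7-54 0.88, adjusted p 1.17e-06, AI-8-45 against AI-7-54 0.57, adjusted p 8.43e-05, AI-9-54 against AI-8-45 0.30, adjusted p 0.0121). Unlike Ddit3, its set difference was -0.01. Impact, whose product restrains the kinase GCN2, was higher under AI-9-54 than under AI-7-54 (0.40, adjusted p 0.00261), and the exchange factor genes Eif2b3 (-0.42, adjusted p 2.73e-05) and Eif2b5 (-0.20, adjusted p 0.041) were lower. Eif2b3 was also lower under AI-8-45 than under AI-7-54 (-0.37, adjusted p 0.000231). With the set as a term 2 genes of the list passed as higher and 2 as lower for AI-9-54 against AI-7-54, 1 and 2 for AI-8-45 against AI-7-54, and 2 and 0 for AI-9-54 against AI-8-45. The list's median was -0.08, -0.09 and 0.01 for AI-9-54 against AI-7-54, AI-8-45 against AI-7-54 and AI-9-54 against AI-8-45.

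The ATF6 and IRE1 arms of the unfolded protein response work beside the PERK arm, and 15 of their genes were measured. For AI-9-54 against AI-7-54, 2 were higher and 3 lower (median -0.14): the sensor gene Atf6 (0.31) and Edem1 (0.19) were higher, and the chaperone genes Hyou1 (-0.34) and Sdf2l1 (-0.29) and the translocon gene Sec61b (-0.31) were lower. For AI-8-45 against AI-7-54, Hyou1 (-0.34), Sdf2l1 (-0.24) and the IRE1 gene Ern1 (-0.22) were lower and none was higher (median -0.12). Between AI-9-54 and AI-8-45 Ern1 was higher (0.31, list median 0.04) and no other gene of the list was called. With the set as a term 4 passed as higher and 6 as lower for AI-9-54 against AI-7-54, 0 and 4 for AI-8-45 against AI-7-54, and 3 and 0 for AI-9-54 against AI-8-45. Herpud1, a gene of protein degradation at the endoplasmic reticulum, was among those that passed only with that term (0.42, adjusted p 0.000212, against 0.53 and adjusted p 0.216 without it, for AI-9-54 against AI-7-54), as was the chaperone gene Dnajb9 (0.22, adjusted p 0.0427). Hspa5 (-0.18, adjusted p 0.0114), Manf (-0.18, adjusted p 0.0223) and Pdia6 (-0.16, adjusted p 0.014) passed as lower only with that term in the same comparison. The genes named as passing only with that term were chosen after their values were seen. The part of these arms in the Ddit3 differences was not tested.

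Of 9 measured close relatives of the 10 genes, Sesn3, the sestrin gene known as a FOXO target, had the same order of compounds: 11.32 ± 0.04 under AI-9-54, 11.11 ± 0.01 under AI-8-45 and 10.62 ± 0.06 under AI-7-54 (SD). It passed in all 3 comparisons (0.69, adjusted p 1.4e-06, 0.49, adjusted p 6.07e-05 and 0.21, adjusted p 0.0296, for AI-9-54 against AI-7-54, AI-8-45 against AI-7-54 and AI-9-54 against AI-8-45). Trib2 was higher under AI-9-54 than under AI-7-54 by 0.19 (adjusted p 0.0293), and none of the relatives was called lower in the model without the set. With the set as a term Jdp2, a bZIP gene that the list of targets also holds, was lower under AI-9-54 (-0.39, adjusted p 0.00411) and under AI-8-45 (-0.52, adjusted p 0.00177) than under AI-7-54, and the lipoprotein receptor gene Lrp8 was lower under AI-9-54 than under AI-7-54 (-0.20, adjusted p 0.0252). Both were named after their values were seen. The medians of this list were -0.02, -0.05 and 0.03 in the same order. Of 16 genes for bZIP partners, 5 were higher and 2 lower under AI-9-54 than under AI-7-54 (median 0.11). The AP-1 gene Fosl2 was higher by 1.37 and Jund by 0.41, Cebpg and Atf6, which other lists hold too, were among the higher genes, and Batf (-0.56) and Maf (-0.37) were lower. For AI-8-45 against AI-7-54 Batf was lower (-0.45) and none higher (median 0.06), and for AI-9-54 against AI-8-45 Fosl2 was higher (1.10) and Maf lower (-0.53), with a median of 0.07. With the set as a term the counts were 5 higher and 2 lower, 0 and 1, and 4 and 1, in the order AI-9-54 against AI-7-54, AI-8-45 against AI-7-54 and AI-9-54 against AI-8-45.

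**Figure D5:**
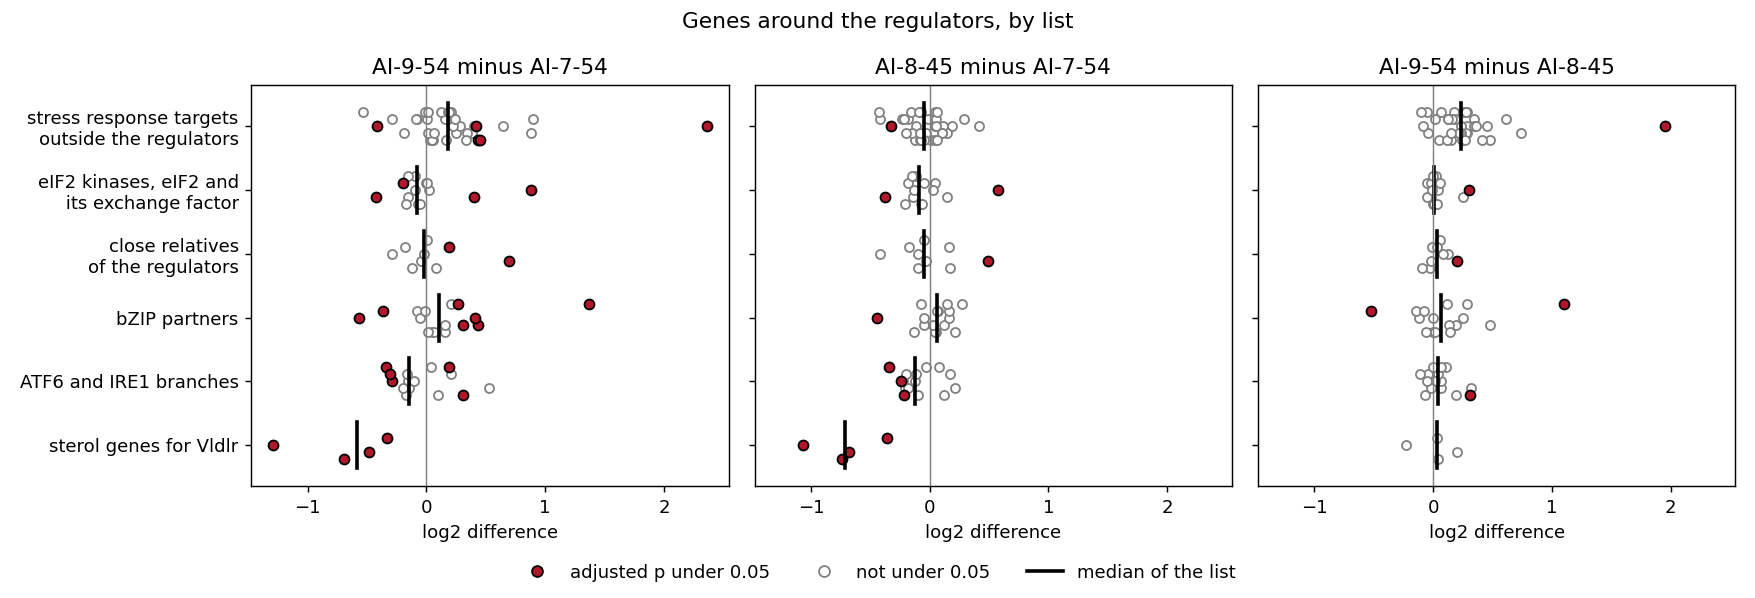
Log2 differences of the genes of 6 lists around the stress response, in each comparison of compounds. Filled points passed the test, open points did not, and the black bar is the list's median. Targets outside the 10 genes have a median of 0.18 for AI-9-54 minus AI-7-54 and -0.05 for AI-8-45 minus AI-7-54, and the 4 sterol genes are lower in both.

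Genes with the array pattern most like Atf4, Atf5 and Ddit3 were found by the root mean square difference between values centred on each gene's mean over the 11 arrays. This measure is a description, and the arrays share compounds and replicate sets. Closest to Atf4 were Slc3a2 (0.09), the mitochondrial phosphoenolpyruvate carboxykinase gene Pck2 (0.10), Sema6a (0.10), Cyb5r1 (0.10) and Rhob (0.10), beside an SD of 0.26 for Atf4 itself. Closest to Atf5 were the sulfotransferase gene Chst2 (0.08), Tex2 (0.08), Bves (0.13), the Notch ligand gene Jag1 (0.14) and the metallothionein gene Mt2 (0.15), beside an SD of 0.49 for Atf5. Closest to Ddit3 were the endothelin receptor gene Ednrb (0.17), Atf5 (0.20), Olfr763 (0.21), Bves (0.21) and Chst2 (0.22), beside an SD of 0.64 for Ddit3.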

How the data were processed

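RNA from 11 samples was hybridised to single-colour arrays. RMA and Partek 6.6 are named in the submitters' processing notes. The values as deposited were taken as log2, since they span 3.23 to 13.8 with array medians of 6.61 to 6.68. No genome build for the platform table is stated in these sources. The array has 41345 probe sets: 23521 with a single symbol, 1814 with several and 16010 without a name here. Symbols followed the Entrez identifier where it was found (23328 probe sets), and a gene with several probe sets took the one of highest mean, which left 22180 genes. The 10 genes matched by symbol, each with 1 probe set. Array pairs correlated between 0.994 and 0.999.

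Compounds were compared in a single model with limma 3.58.1 (R 4.3.3, 8 residual degrees of freedom), two-sided, with Benjamini-Hochberg adjustment over all genes and a call at an adjusted p under 0.05. Another model, with a mean per compound and replicate set, gave the interaction. The scripts were tested on simulated data. The members, lists and tests were chosen with earlier results of these data known. Apart from cell type markers, genes outside the 10 were named by rule as the called genes of a list, largest difference first and at most 4 per list and direction. The 5 most like Atf4, Atf5 or Ddit3 were named too. Some that passed only with the replicate set as a term, or differed much between the sets, were named after their values were seen, as stated where they appear. Symbols resolved for 35 of 39 targets, 14 of 16 eIF2 genes, 9 of 10 relatives, 16 of 16 bZIP partners, 15 of 16 unfolded protein response genes and 4 of 7 sterol genes. Same-numbered arrays of different compounds had deviations correlated between -0.02 and 0.45, so the numbers were not taken as pairs. Alternatives changed the scaling, the filter on dim genes, the treatment of probe sets, the variance trend, array weights, replicate terms and the arrays included. Plots used matplotlib 3.10.9 (Python 3.11.15).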

Additional observations from a re-analysis of the deposited data

Results flagged for a closer look

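The Ddit4 signal of AI-8-45 replicate 4, 9.75, lay far from the other 3 arrays of its group, of which the nearest was at 9.31. The gap was 0.84 of the group's range. Of 20 groups of 4 arrays examined (10 genes in AI-9-54 and AI-8-45), this was the only 1 with such an array, and chance gives about 1 in 20.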

How the results depend on the processing

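Of 717 recomputed compound differences of single genes, 652 kept their side of the threshold, 36 lost and 29 gained a call. None that passed the test before or after the change switched sign. Some small differences that passed in neither case did switch. For Atf4 between AI-8-45 and AI-7-54 the value was 0.03 in the main model and -0.04 with the replicate set as a term. The 577 recomputed interactions kept their side of the threshold. Counts of called genes are given here for AI-9-54 against AI-7-54 (6 of the 10 genes, 3139 of all), AI-8-45 against AI-7-54 (3 and 1255) and AI-9-54 against AI-8-45 (2 and 290), in that order. Leaving out 1 array at a time gave 4 to 6, 0 to 3 and 1 to 3 of the 10 genes, and 2103 to 3290, 540 to 1229 and 128 to 257 of all genes. With every probe set tested 5, 0 and 1 of the 10 were called, and 3431, 1026 and 129 of all probe sets. Over the genes brighter than the median gene 7, 3 and 3 were called, and 3498, 1688 and 436 of all these genes. When only the groups compared were fitted 6, 3 and 1 were called (2802, 1074 and 141 of all). Replicates 1 and 2 alone gave 7, 0 and 1 (593, 2 and 6 of all genes). Replicates 3 and 4 alone gave 9, 2 and 4 (2189, 613 and 143 of all). With the replicate number as a block 9, 3 and 8 of the 10 were called (3297, 1408 and 517 of all), and with the replicate set as a factor 9, 3 and 8 (4036, 1949 and 816 of all). Same-numbered arrays correlated no better (-0.02 to 0.45) than arrays of the same set with other numbers (0.04 to 0.49), and arrays of different sets between -0.48 and 0.01. The other scalings, the mean over probe sets, the variance trend, the lower filter and array weights left 6 or 7, 3 and 2 of the 10 called. Over all genes tested these gave 2742 to 3689, 1038 to 1825 and 201 to 325 calls. Without AI-7-54 replicate 1 the interactions with AI-7-54 could not be fitted. The number of arrays limits the precision, and the cause of these changes was not tested.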

Other observations

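The stress response targets outside the 10 genes differed between the replicate sets. In all 3 compounds, every array of replicates 1 and 2 lay above every array of replicates 3 and 4 for 29 of 35 of them and below for none, beside 5% and 5.64% of all genes. Their median difference between the sets was 0.46 on the log2 scale. The largest were those of the amino acid transporter genes Slc7a3 (1.24) and Slc7a11 (1.16), the cystathionine gamma-lyase gene Cth (0.81), the cysteinyl-tRNA synthetase gene Cars (0.81) and the translation repressor gene Eif4ebp1 (0.79). The asparagine synthetase gene Asns differed by 0.70, less than Slc7a1 (0.76) and Slc7a5 (0.74). The genes named as largest were picked for their size, and all genes named here were chosen after the values were seen. The median was 0.00 for the eIF2 kinases, eIF2 and its exchange factor and 0.01 for genes of the ATF6 and IRE1 arms. Of 8 T-cell markers, 5 were above in replicates 1 and 2 in all 3 compounds, with a median of 0.10. What set the sets apart was not tested.

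The mean log2 signal of the 10 genes kept the same order of compounds in both sets. In replicates 1 and 2 it was 9.08 and 9.12 under AI-9-54, 8.63 and 8.57 under AI-8-45 and 8.39 under AI-7-54. In replicates 3 and 4 it was 8.78 and 8.67 under AI-9-54, 8.21 and 8.31 under AI-8-45 and 8.09 and 7.99 under AI-7-54. Across the sets the ranges overlapped, so that AI-8-45 replicates 3 and 4 lay below AI-7-54 replicate 1.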
